A study of Mus musculus with 10 samples.

Results

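Linker histone H1 genes were examined as 7 of the 21627 protein-coding RefSeq genes placed on the 20 chromosomes that held peaks. H1f1, H1f2, H1f3, H1f4 and H1f5 lie among the core histone genes of chromosome 13, whereas H1f0 (chromosome 15) and H1f10 (chromosome 6) stand outside the histone clusters. The genes were chosen by name with peaks at some of them already known, so their peaks are described and not tested. A peak was placed at a gene when its summit, the position of highest signal, lay within 5 kb of the gene in RefSeq coordinates.

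The data are peak lists of ChIP-seq for HA-tagged SOX15 (3 libraries) and HA-tagged SOX2 (2 libraries) from mouse embryonic stem cells, kept naive by culture in 2i/LIF. Both are HMG-box transcription factors, each was tagged by knock-in, and no ChIP from untagged cells was analysed here. All cultures were fixed with 1% formaldehyde for 5 min. The 5 input samples, 3 for SOX15 and 2 for SOX2, were not analysed here. Whether replicates came from separate cultures is not stated, and the spread between them may be technical. The SOX15 lists held 217, 672 and 437 peaks in replicates 1, 2 and 3, and the SOX2 lists held 2676 and 4817 peaks in replicates 1 and 2. The smallest −log10 q-value (q is a p-value adjusted by the caller for multiple testing) was 2.76, 2.03 and 1.31 in the SOX15 lists and 2.10 and 2.20 in the SOX2 lists. The lists hold no read counts, so depth is unknown, and signal too weak for the peak caller would not appear. Of 10 genes that mark embryonic stem cells, 7 had a peak within 5 kb in both SOX2 libraries, against 5.75% of all genes. Pou5f1, Nanog and Sox2 were among them, while Klf4 and Tdgf1 had no peak in any library. In at least 2 SOX15 libraries 3 of the 10 had a peak, against 1.05% of all genes. None of 4 trophoblast or 4 primitive endoderm genes had a peak in any library. Since 87.5% of all genes also had none, nothing is read from this absence. Of 4 fibroblast genes Pdgfrb alone had a peak, in the 3 SOX15 libraries, as did 0.587% of all genes. Peak lists show where a factor was found, not which genes were expressed.

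Linker histones bind the nucleosome where DNA enters and leaves it and help chromatin to fold. The clustered H1 genes are replication-dependent: they are transcribed in S phase, have no introns, and give mRNAs that end in a stem-loop in place of a poly(A) tail. H1f0 and H1f10 give polyadenylated mRNAs whose synthesis is not tied to S phase, and H1f0 is best known from cells that stop dividing and differentiate. Mouse embryos that lack H1f2, H1f3 and H1f4 together die before birth.

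The promoters of the clustered genes are shown because H1f3 and H1f4 both carry each of the boxes marked below and differed in SOX15 peaks at the start. The pair is not matched in other ways. H1f4 also had the GC box, described below, and H1f3 did not. H1f3 had further matches to a marked box on the opposite strand, and H1f4 did not. Each line gives the 150 bases before the start of transcription, 5′ to 3′ on the strand of the gene, from RefSeq for GRCm38.p6. The windows are chr13:23763518-23763667 (H1f1, plus strand), chr13:23738657-23738806 (H1f2, plus), chr13:23554882-23555031 (H1f3, plus), chr13:23622559-23622708 (H1f4, minus), chr13:21780626-21780775 (H1f5, minus) and chr15:79028062-79028211 (H1f0, plus, for contrast). Capitals mark AAACACA (the H1 box), CCAAT (the box bound by NF-Y) and TATAAA on either strand.
H1f1: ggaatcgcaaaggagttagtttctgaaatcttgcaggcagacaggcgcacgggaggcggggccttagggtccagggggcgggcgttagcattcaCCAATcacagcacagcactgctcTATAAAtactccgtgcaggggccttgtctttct
H1f2: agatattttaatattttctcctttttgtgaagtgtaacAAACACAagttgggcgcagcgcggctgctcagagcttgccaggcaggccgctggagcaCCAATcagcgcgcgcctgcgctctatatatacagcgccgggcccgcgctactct
H1f3: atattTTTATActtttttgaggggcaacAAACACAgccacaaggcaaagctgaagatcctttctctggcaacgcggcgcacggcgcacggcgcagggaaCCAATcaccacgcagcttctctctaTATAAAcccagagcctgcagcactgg
H1f4: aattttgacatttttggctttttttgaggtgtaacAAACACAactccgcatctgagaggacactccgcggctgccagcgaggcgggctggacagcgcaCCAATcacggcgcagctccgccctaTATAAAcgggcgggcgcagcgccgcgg
H1f5: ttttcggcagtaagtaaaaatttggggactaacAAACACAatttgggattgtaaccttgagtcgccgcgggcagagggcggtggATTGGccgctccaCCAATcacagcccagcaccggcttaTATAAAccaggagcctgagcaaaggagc
H1f0: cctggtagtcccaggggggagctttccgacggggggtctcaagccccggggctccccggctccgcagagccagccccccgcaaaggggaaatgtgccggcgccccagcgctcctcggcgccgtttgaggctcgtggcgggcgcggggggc

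Over the full promoter window of 300 bases (250 before the start and 50 after it), CCAAT was present in each of the 5 clustered genes and in neither H1f0 nor H1f10. The H1 box AAACACA was found in H1f2, H1f3, H1f4 and H1f5, between 122 and 106 bases before the start. H1f1 had no match to the H1 box in these letters. TATAAA was found in H1f1, H1f3, H1f4 and H1f5, and ended 21 to 28 bases before the start on the gene's own strand. Of all 32851 RefSeq promoters 37.4% held CCAAT, 7.18% AAACACA and 13.6% TATAAA on either strand. Among 52 core histone promoters 84.6%, 7.69% and 57.7% held them. Of the letters at the core of SOX motifs, ACAAT occurred in H1f5 alone, at 2 places, and ACAAAG in no member, against 31.0% and 18.7% of all promoters. Of the core histone promoters 42.3% held ACAAT and 21.2% ACAAAG. The first of the H1f5 matches overlapped the H1 box. ATTTGCA, the core of the octamer motif, was in no member, in 4.02% of all promoters and in 25% of core histone promoters. GGGCGG, the GC box, was in H1f0, H1f1, H1f4, H1f5 and H1f10, in 35.7% of all promoters and in 36.5% of core histone promoters. A match is a string of letters, not a measured site. The sequence past the 3′ ends of the genes was not searched.

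SOX15 peaks lay at H1f1, H1f2, H1f3, H1f4 and H1f5 in each of the 3 SOX15 libraries, and at neither member outside the clusters. These 5 genes had a peak in all 3 SOX15 libraries, where 0.587% of all protein-coding genes did. A peak in at least 2 SOX15 libraries was found at the same number of members and at 1.05% of all genes. In single libraries the background was 0.902%, 2.36% and 1.64% of genes in SOX15 replicates 1, 2 and 3. Both SOX2 libraries had a peak at H1f1, H1f2, H1f3 and H1f5, which makes 4 of 7 members against 5.75% of all genes. The single SOX2 libraries called these 4 genes too, with a background of 6.42% in replicate 1 and 10.1% in replicate 2. H1f4 had peaks in the 3 SOX15 libraries and in neither SOX2 library. Because the genes were chosen on these lists, nothing is read from the contrast with the background.

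H1f0 and H1f10 had no peak within 5 kb in any of the 5 libraries. The nearest SOX15 summit to H1f0 lay 1045.55, 883.5 and 1045.54 kb away in replicates 1, 2 and 3, and the nearest SOX2 summit 1045.4 and 386 kb away in replicates 1 and 2. For H1f10 the nearest SOX15 summit was 23318, 619 and 502 kb away, and the nearest SOX2 summit 434.59 and 434.60 kb. Of the tissue-restricted linker histone genes, H1f7 (spermatids, chromosome 15) and H1f8 (oocytes, chromosome 6) likewise had no peak within 5 kb. H1f6, the testis H1 gene inside the chromosome 13 cluster, had a summit in SOX15 replicates 1 and 3 (fold 6.35 and 10.7) and in SOX2 replicate 1 (fold 6.995). Those summits lay 1163 to 1263 bp past the 3′ end of H1f6 and were nearer to the core histone gene H4c3.

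The 53 peaks at the members numbered 12, 12 and 12 in SOX15 replicates 1, 2 and 3, and 11 and 6 in SOX2 replicates 1 and 2. They made up 5.53% (Wilson 95% interval 3.19 to 9.42), 1.79% (1.02 to 3.10) and 2.75% (1.58 to 4.74) of the SOX15 lists, and 0.411% (0.230 to 0.735) and 0.125% (0.0571 to 0.272) of the SOX2 lists. The intervals cover counting error only, and they take neighbouring peaks of chosen genes as independent. The mean share was 3.35% ± 1.94 for SOX15 (SD, n = 3) and 0.268% ± 0.203 for SOX2 (SD, n = 2), a difference of 3.09 points, and no SOX15 library overlapped the SOX2 libraries. An exact permutation of 3 against 2 libraries cannot give a p below 0.1, and none was computed. Without SOX15 replicate 1 the difference was 1.998 points, and with peaks placed at their nearest gene alone it was 1.80 points. The lists differ in length, and the share divides counts of 12, 12, 12, 11 and 6 peaks by that length. The difference in share thus depends on list length and does not compare binding by the factors. Among the 217 strongest peaks of each list, members had 12, 10 and 11 peaks in SOX15 replicates 1, 2 and 3, and 0 peaks in either SOX2 library. This cut keeps the whole list of SOX15 replicate 1, so its count could not change, and only the top of the longer lists.

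**Figure D1:**
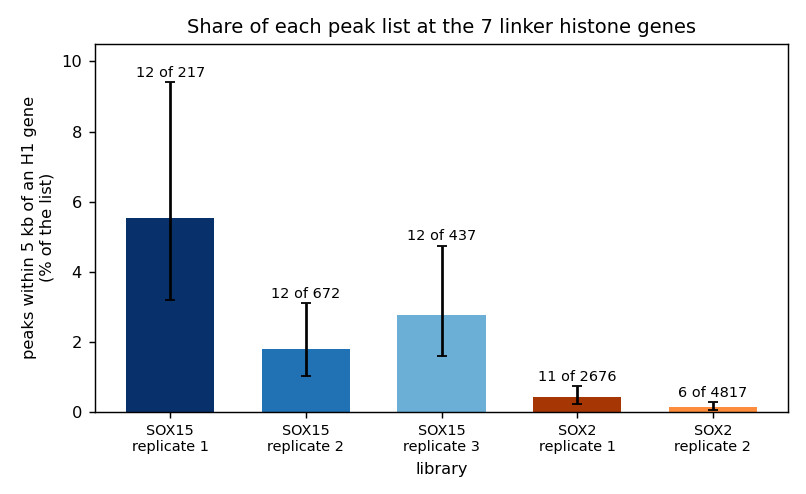
Percent of the peaks of each library with a summit within 5 kb of any of the 7 linker histone genes; bars are single libraries, error bars are Wilson 95% intervals, and the counts stand above them. The 3 SOX15 libraries sit between 1.79% and 5.53%, all above the SOX2 libraries at 0.411% and 0.125%, whose lists are longer.

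Not all of these peaks were nearest to an H1 gene. Of the 36 SOX15 peaks 21 were nearest to a member and 15 to a core histone gene, and of the 17 SOX2 peaks 10 and 7 were. In each SOX15 library the split was 7 and 5. The core histone neighbours that took the rest were H4c1 and H3c1 beside H1f1, H4c6 beside H1f3 and H3c11 beside H1f5 for SOX15, with H3c3 beside H1f2 added for SOX2 replicate 1. At the edge of the window, the farthest summit counted at H1f2 was 4527 bp away (SOX2 replicate 1). The nearest left out at H1f2 were at 5.04, 5.13 and 5.27 kb in SOX15 replicates 1, 2 and 3, where the fold was 15.3, 16.6 and 14.0, and at 5.02 and 5.19 kb in SOX2 replicates 1 and 2, where it was 9.79 and 7.14.

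Read along the direction of transcription, the SOX15 summits fell at 2 places: just past the 3′ end of the gene, and just inside its start. Each of the 5 clustered genes had a SOX15 summit up to 500 bp past its 3′ end in all 3 libraries, where 0.168% of the 17273 genes with a known strand did. With at least 2 libraries required the count of members was again 5, against 0.255% of genes. Over the 15 such peaks the summit lay 45 to 348 bp past the end, with a median of 145 bp. A summit within 250 bp of the start was present in all 3 SOX15 libraries at H1f2 and H1f3, against 0.0753% of genes, and the same 2 members had one in at least 2 libraries, against 0.151%. These 6 summits lay 35 to 113 bp after the start, inside the transcribed part. All 21 SOX15 summits nearest to a member belonged to one of these places, 15 to the 3′ end and 6 to the start. Both windows were set after the summits had been seen.

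**Figure D2:**
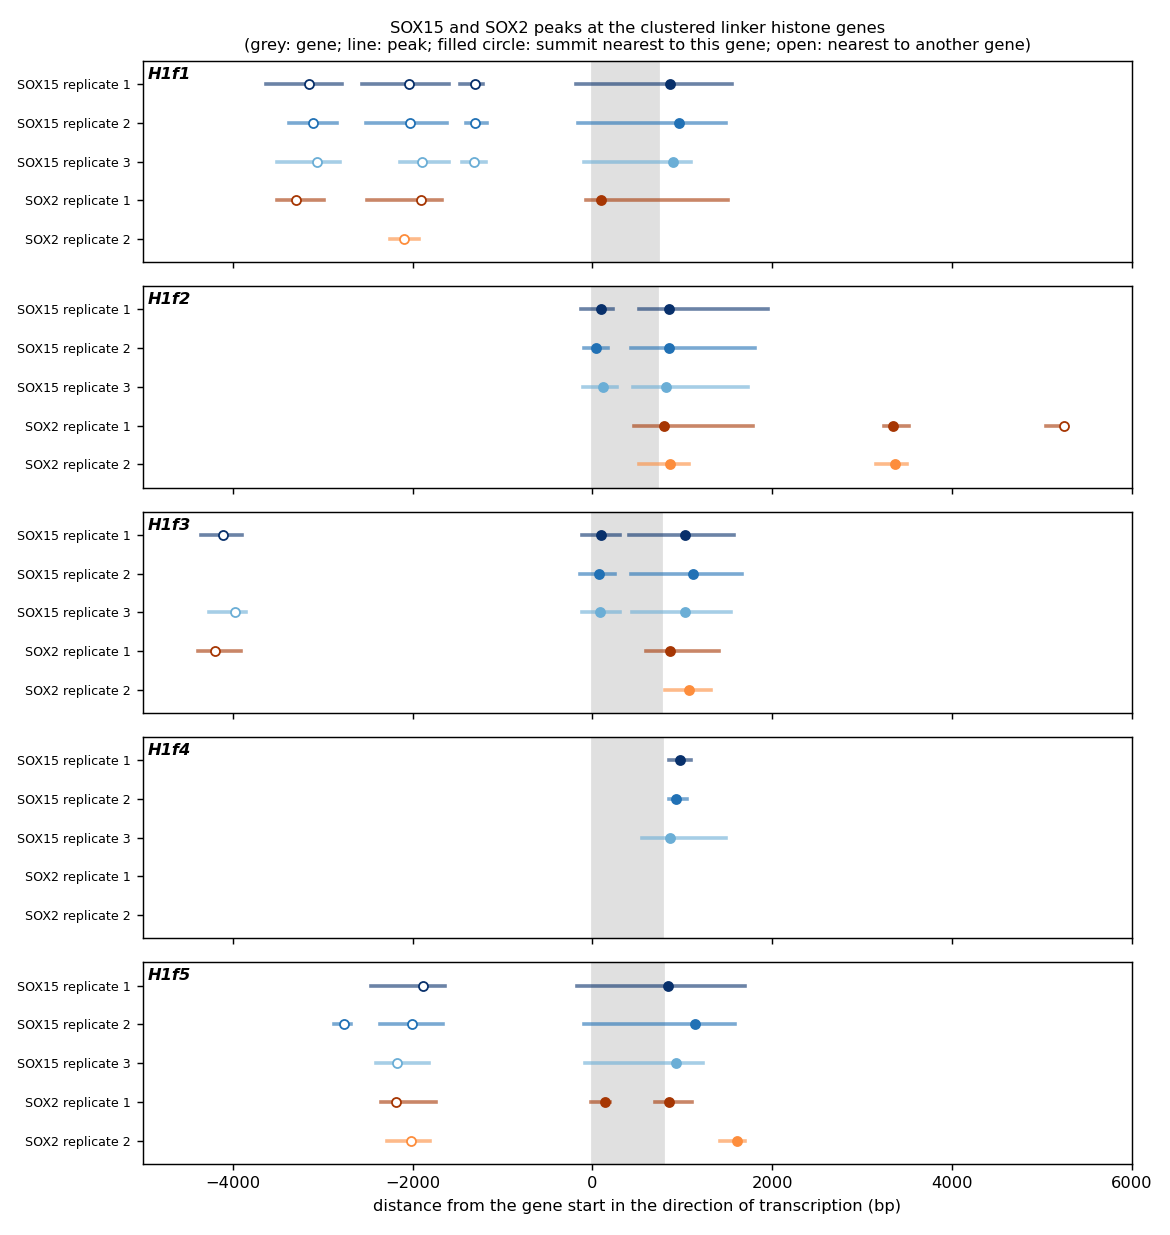
Peaks of the 5 libraries at the clustered linker histone genes, plotted by distance in bp from the gene start along the direction of transcription; grey marks the gene, lines the peaks, filled circles summits nearest to the gene named and open circles summits nearest to another gene. Of the SOX15 summits nearest to the gene named, 15 fall 45 to 348 bp past the 3′ end and 6 fall 35 to 113 bp after the start, at H1f2 and H1f3; the other 15 SOX15 summits are nearest to core histone genes.

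H1f2 (H1c) had SOX15 peaks both past its 3′ end and at its start. Past the 3′ end the fold, the authors' own value per peak and comparable only within a list, was 32.1, 17.1 and 14.4 in SOX15 replicates 1, 2 and 3, and 6.76 and 5.62 in SOX2 replicates 1 and 2. These peaks ranked 16, 44 and 44 from the top of the SOX15 lists, and 1941 and 4214 from the top of the SOX2 lists. The peak thus stood near the top of each SOX15 list and in the lower part of both SOX2 lists. SOX15 summits lay 126, 129 and 96 bp past the end in replicates 1, 2 and 3, and SOX2 summits 70 and 143 bp past it in replicates 1 and 2, so both factors were called at the same place. At the start of H1f2 a separate, narrower peak reached a fold of 8.71 in SOX15 replicate 1, 7.81 in replicate 2 and 14.1 in replicate 3, with widths of 355, 266 and 379 bp. No SOX2 library had a peak there. SOX2 alone had a further site 2624 and 2644 bp past the 3′ end (fold 11.2 in replicate 1 and 5.62 in replicate 2), which no SOX15 library called.

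H1f3 (H1d) showed the same pair of SOX15 peaks. At its start the fold was 18.5, 11.1 and 17.8 in SOX15 replicates 1, 2 and 3, with summits 98, 75 and 87 bp after the start. Past its 3′ end the fold was 19.5, 20.6 and 14.5, with summits 258, 348 and 258 bp beyond the gene. The start peak was the higher one in replicate 3 and the 3′ peak in replicates 1 and 2. Of the places at the gene itself SOX2 was called past the 3′ end only, 90 bp beyond the gene in replicate 1 (fold 13.0) and 297 bp beyond it in replicate 2 (fold 5.24). The SOX2 replicate 1 peak ranked 520 from the top and that of replicate 2 ranked 4438, so the site stood high in the list of replicate 1 and low in that of replicate 2.

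H1f1 (H1a) had a peak that ran over the whole gene in every SOX15 library. Its width was 1738, 1647 and 1196 bp in SOX15 replicates 1, 2 and 3, it covered 100% of the 745 bp gene in each, and its summit stood 122, 223 and 157 bp past the 3′ end. The fold was 20.7, 21.9 and 22.2. SOX2 replicate 1 had an equally broad peak of 1587 bp, with a fold of 7.33 and a summit 99 bp after the start, and SOX2 replicate 2 had none on the gene. Upstream, near H3c1 and H4c1, SOX15 replicates 1, 2 and 3 each had 3 further peaks within 5 kb, and SOX2 replicates 1 and 2 had 2 and 1. The call of H1f1 in both SOX2 libraries therefore rests on the site beside H3c1, where the fold was 18.1 and 8.18.

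H1f5 (H1b) lies apart from the other clustered members, 1.77 Mb from H1f3 on the same chromosome. Its peak covered the whole 794 bp gene in every SOX15 library, with widths of 1869, 1684 and 1314 bp in replicates 1, 2 and 3. The fold was 24.9, 6.92 and 10.4, and the summit lay 45, 346 and 135 bp past the 3′ end. The summits of the 3 libraries were spread over 301 bp, against 101 bp at H1f1. SOX2 replicate 1 had narrow peaks 144 bp after the start (fold 4.49) and 65 bp past the 3′ end (fold 6.29), and SOX2 replicate 2 had a peak 813 bp past the 3′ end (fold 5.83). The summits of the SOX2 libraries at the gene did not coincide, while both had a peak beside H3c11 with folds of 7.99 and 6.26.

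Among the SOX15 peaks past a 3′ end, those of H1f4 (H1e) had the lowest fold of the 5 genes in each SOX15 library. The fold was 4.84, 6.46 and 6.68 in SOX15 replicates 1, 2 and 3, and the peaks ranked 201, 205 and 188 from the top. Summits lay 189, 145 and 84 bp past the 3′ end, the same side as in the other genes. The next gene, H2bc6, was 464, 508 and 569 bp from these summits. No library had a peak over the 150 bases before the start of H1f4, printed above. Whether the boxes marked there bear on peaks was not tested. In H1f2 the SOX15 peaks covered 127, 92 and 100 of these bases in replicates 1, 2 and 3, in H1f3 113, 137 and 113, in H1f1 150, 150 and 96, and in H1f5 150, 91 and 87. At H1f1 and H1f5 these were the broad peaks with a summit past the 3′ end, not separate peaks at the start. Of the SOX2 libraries replicate 1 alone reached into these windows, over 75 bases at H1f1 and 14 at H1f5. The clustered H1 genes are paralogs, and how reads that match several copies were handled is not stated, so values at single copies are uncertain, and read sharing was not tested.

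**Figure D3:**
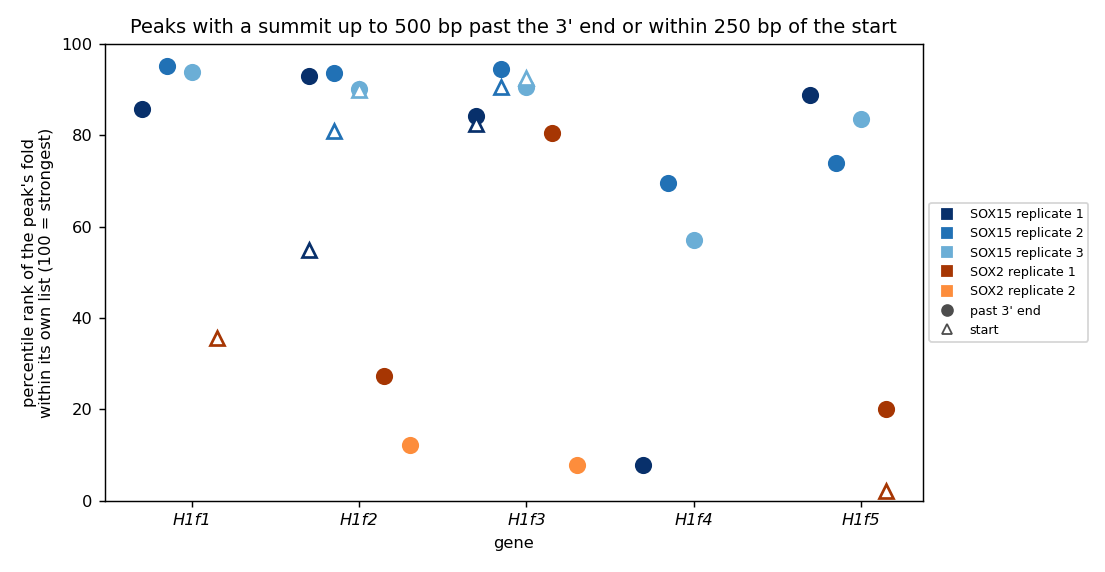
Percentile rank of fold within its own list (100 is the strongest peak of that list) for each peak up to 500 bp past the 3′ end (circles) or within 250 bp of the start (triangles) of the clustered linker histone genes, coloured by library. SOX15 peaks past the 3′ end of H1f1, H1f2 and H1f3 sit between 84.3 and 95.1, and those of H1f4 reach down to 7.83.

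Within the SOX15 lists the peaks past the 3′ end stood high at H1f1, H1f2, H1f3 and H1f5 and lower at H1f4. They had percentile ranks of 85.7, 95.1 and 93.8 at H1f1 in SOX15 replicates 1, 2 and 3, 93.1, 93.6 and 90.2 at H1f2, and 84.3, 94.5 and 90.6 at H1f3. The ranks were 88.9, 74.0 and 83.6 at H1f5 and 7.83, 69.6 and 57.1 at H1f4. Taking the strongest peak within 5 kb, the median over the 5 genes of the mean percentile was 90.4 for SOX15. For SOX2 it was 43.4 over 4 genes, in lists that are longer. With summits within 1 kb it was 19.9 over 3 genes, and with peaks placed at their nearest gene alone 42.6. Within 5 kb, SOX2 replicate 1 alone gave 76.8 and replicate 2 alone 16.8. These SOX2 medians are mostly not of peaks at the 3′ ends. The strongest SOX2 peak lay beside H3c1 at H1f1 and beside H3c11 at H1f5. At H1f2 it lay 2624 bp past the 3′ end in replicate 1, so the libraries partly rank different sites. The SOX15 median mixes sites too. In SOX15 replicate 2 the strongest peak lay beside H3c1 at H1f1 (percentile 96.1) and beside H3c11 at H1f5 (93.9). At H1f3 it lay at the start in SOX15 replicate 3 (92.4). In all other cases it was the SOX15 peak past the 3′ end. Percentiles of lists of unequal length are given for each list and do not compare binding.

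Core histone genes, which lie between and beside the clustered H1 genes, had summits at the same places. Of the 21 SOX15 peaks nearest to the clustered H1 genes 71.4% had the summit up to 500 bp past the 3′ end and 28.6% within 250 bp of the start, against 66.2% and 24.8% of the 133 peaks nearest to a core histone gene. For SOX2 the shares past the 3′ end were 50% of 10 peaks at H1 genes and 65.6% of 61 peaks at core histone genes. Within 5 kb, 39 of 57 core histone genes (68.4%) had a SOX15 peak in all 3 SOX15 libraries, and 32 (56.1%) had a SOX2 peak in both SOX2 libraries. Of the 52 core histone genes with a known strand, 33 (63.5%) had a SOX15 summit past the 3′ end in at least 2 libraries, and 21 (40.4%) had one in all 3. Within 250 bp of the start, 8 of the 52 (15.4%) had a SOX15 summit in all 3 libraries. SOX2 summits past the 3′ end in both libraries were found at H1f2 and H1f3 and at 11 of the 52 core histone genes (21.2%), against 0.127% of all genes. Within 250 bp of the start both SOX2 libraries had a peak at no H1 gene, at 3 core histone genes and at 0.145% of all genes. A peak equally near to several genes was counted at each, so 133 and 61 can exceed the number of separate peaks. Genes and peaks here are neighbours that share regions, so these are counts without a test.

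**Figure D4:**
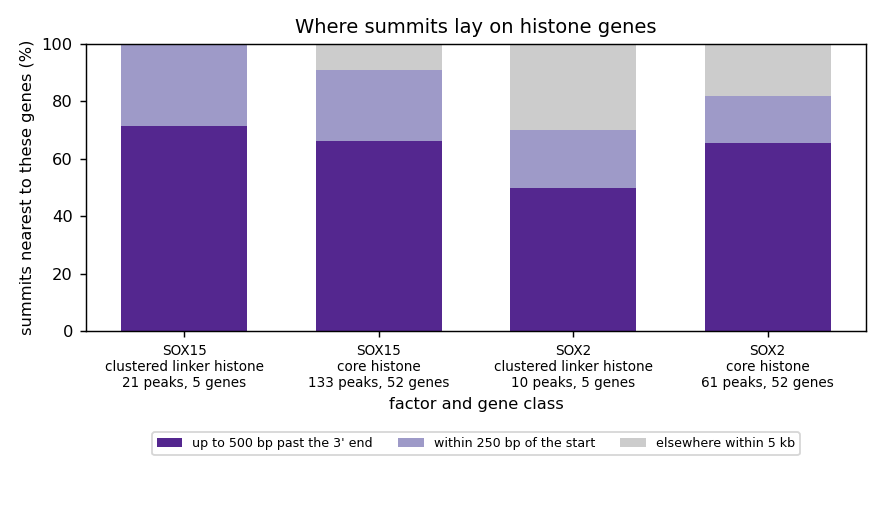
Share in percent of the summits nearest to clustered linker histone genes and to core histone genes that lay up to 500 bp past the 3′ end, within 250 bp of the start, or elsewhere within 5 kb, for SOX15 and SOX2. In SOX15 the 3′ share was 71.4% at linker histone genes and 66.2% at core histone genes. A peak equally near to several genes counts at each.

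Factors that act on these genes or on H1 itself were read from a list fixed by name. In this list of 22 genes for histone transcription, histone mRNA 3′ end formation, H1 chaperones and factors of the promoter boxes, 1 had a peak within 5 kb in at least 2 SOX15 libraries and 2 in both SOX2 libraries, and 17 had none in any library, as had 87.5% of all genes. The gene called by both factors was Ptma, which encodes prothymosin alpha, an acidic binding partner of H1. Its fold was 9.88 and 7.11 in SOX15 replicates 2 and 3, and 14.3 and 16.8 in SOX2 replicates 1 and 2. Pou2f1, the gene of the octamer factor OCT1, was the other SOX2 gene, with folds of 5.25 and 11.1. Casp8ap2, which encodes the histone locus body protein FLASH, had a peak in SOX15 replicate 3 alone (fold 5.05), and Nfyc and Set in SOX2 replicate 2 alone (5.24 and 7.49). Npat, Slbp, Lsm10, Lsm11 and Hinfp, which act in histone gene transcription and mRNA processing, were among the genes with none. The backgrounds over all genes were 1.05% for SOX15 and 5.75% for SOX2, and no test was made of so few calls.

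The genes most like each member were found by the mean absolute difference, over the 5 libraries, of the percentile of the strongest peak within 5 kb, leaving out genes that share a peak with the member. H1f1 was nearest to H2ac7, H2ac8 and H2bc7, which had equal values (2.62 points). For H1f2 the nearest were Tti2 (2.41), H2ac11 and H2bc11 (4.09 each), and for H1f3 they were Tti2 (3.15), H1f2 (4.83) and Armh1 (5.14). H1f4 was nearest to Bag6 and Prrc2a (2.96 each) and Idh3b (3.30), with no SOX2 peak at any of them. H1f5 was nearest to Wscd2 (7.29), Eef1a1 and Mto1 (7.37 each). Neighbours such as Bag6 and Prrc2a shared a peak, which gives them equal values, and the measure covers 5 libraries only.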

How the data were processed

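ChIP-seq peak lists of 3 SOX15 and 2 SOX2 libraries were used, 1 list per sample. Bowtie2, MACS2, deepTools and the build mm10 are named, without versions, in the submitters' processing notes; the use of inputs as control was not stated there. In the deposited lists each peak has a fold enrichment (a ratio over background), a −log10 p-value and a −log10 q-value from the authors, start, end and summit offset, and a deposited score, which in 100% of peaks was 10 times that −log10 q-value without its decimals.

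Summits were compared with RefSeq genes of GRCm38.p6, which has the coordinates of mm10, on 20 chromosomes. Strand came from the RefSeq promoter table and was known for 17273 genes. Starts and 3′ ends are the ends of the gene's span. Members, lists and windows were chosen with earlier results of these data known. Named genes were the 7 members, H1f6 to H1f8, a list of 22 histone expression genes, and the 3 genes most like each member. The counting was tested on simulated peaks. No test was run, since the members were chosen on these lists. The planned comparison of proteins was not run, as no protein table was used here. Alternatives were other distances, peak intervals, nearest gene, stricter q-values, equal list lengths and each library left out. Tools were pandas 2.3.3, numpy 2.4.6 and scipy 1.17.1 under Python 3.11.15, with figures by matplotlib 3.10.9.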

Additional observations from a re-analysis of the deposited data

How the results depend on the processing

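The count of 5 members with a SOX15 peak was unchanged under the 13 alternatives run, and 5 members kept a SOX15 summit past the 3′ end under each of 10 alternatives except a window of 250 bp, which gave 4. The 2 members with a SOX15 summit at the start were found under the 10 alternatives run. With each list limited to its 217 strongest peaks, the count of members with peaks in both SOX2 libraries was 0 in place of 4, the count with a SOX2 summit past the 3′ end was 0 in place of 2, the difference in list share was 5.07 points in place of 3.09, and the SOX15 median percentile was 84.0 in place of 90.4. Percentiles were ranked anew within the cut lists. The fall from 90.4 to 84.0 thus follows from the cut in SOX15 replicates 2 and 3, and replicate 1 could not change. The count with a SOX2 summit past the 3′ end was 1 with a window of 250 bp, 3 with 1 kb and 3 with any 1 SOX2 library. The share difference was 1.83 points with summits within 1 kb, 1.80 with the nearest gene alone and 4.72 within 10 kb, and it ranged from 1.998 (without SOX15 replicate 1) to 3.87 (without SOX15 replicate 2) when a library was left out. The strongest SOX15 summit lay a median of 920 bp from the gene start, with a range of 883 to 1258 bp over 11 alternatives. This distance has no sign and is averaged over libraries for each gene, so it mixes sites. In SOX15 replicate 2 the strongest summit lay upstream, at −2031 bp from the start of H1f1 and −2008 bp from that of H1f5. At H1f3 it lay 1033, 1123 and 87 bp after the start in SOX15 replicates 1, 2 and 3. No paired analysis was possible because no result comes from a test. The windows at the 3′ end and the start, and their alternatives, were chosen after seeing the data. Depth is unknown, so peaks under the callers' thresholds cannot be judged.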
